A study of Homo sapiens with 14 samples.

Results

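The circular RNAs (circRNAs) described here are the 1602 whose chromosome, start and end stood in the cytosol table of HepG2 cells and in none of the other 5 fraction tables. They were found by joining the 6 tables on identical coordinates, which gave 11227 circRNAs in all, 5105 of them cytosolic. The cytosol-only circRNAs were therefore 31.4% of the cytosolic ones, and the other 3503 were also listed in at least 1 other table. HepG2 is an established human line derived from a liver tumour. The study took total RNA from whole cells, nucleus, cytoplasm, ribosome, cytosol, exosomes and mitochondria, with 2 samples of each and no treatment. Ribosomal RNA was depleted from all but the exosomal samples, and the libraries kept strand. Neither the way the fractions were isolated nor the origin of the paired samples (1 culture or more) is given by the labels, so an SD over the 2 cytosolic libraries may be technical. Because listing itself chose the members, their presence in cytosol alone is a description, and no test is attached to it.

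A circRNA forms when a downstream splice donor joins an upstream acceptor, a back-splice, which leaves a closed loop without a cap or poly(A) tail. Sequencing sees it as reads across that junction, and programs that call such reads also pick up template switching, reads between near-identical genes and other junctions that are not circles. Cytosol is the soluble part of the cytoplasm, and most circRNAs made of exons are known to be cytoplasmic. HepG2 cells keep part of the hepatocyte programme, including secretion of fibrinogen, complement and other plasma proteins.

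The deposited tables give back-splice junction reads from 2 callers, headed Ciri and CIRC, on hg38. A caller's entry stood in a table only where both libraries of that fraction had at least 1 read, so an unlisted circRNA is not a measured 0. Levels are in RPTM, read here as reads per 10000000 library reads, averaged over the callers with an entry. They are given as mean ± SD of the 2 cytosolic libraries (n = 2). A level is relative to all reads of its library, so more of a circRNA and less of other RNA cannot be told apart. Span is the genomic distance from start to end, introns included. The host is the gene of the RefSeq table (GRCh38.p14) that holds both ends.

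The cytosolic libraries held 60341 and 59163 circRNA reads, within a range of 2277 to 71905 over the 12 libraries, and the RPTM values imply totals of 94.4 M and 104 M reads for these libraries. Values are written to 15 decimals in the cytosol table, as in those of ribosome and exosome, and to 10 in the cytoplasm table, as in those of cell and nucleus. The cytosol and cytoplasm tables thus differ in how they were written, and the part of this in what is listed in cytosol alone was not tested. As a check of the tissue, the hosts over all tables included ALB, APOB, APOH, FGA and FGG, genes of plasma proteins made by hepatocytes. Of the other such genes looked for, AFP, APOA1, TF, TTR, SERPINA1, FGB and AHSG hosted no listed circRNA. The FGA and FGG entries stood in cytosol alone and are themselves members. The nuclear RNA NEAT1 hosted 2 cytosolic entries, at 1.82 ± 0.126 RPTM in sum. Its sums were 0.426 RPTM in nucleus, 0.420 in cells, 1.45 in cytoplasm and 3.92 in ribosome, so cytosol was not particular in this. The nuclear RNAs MALAT1 and KCNQ1OT1 hosted no listed circRNA.

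The junction ends of 10 members lay inside the RefSeq promoter windows (250 bases before to 50 after a gene's start). They are printed here because they show the splice signals at which these circles were called. Only the TNRC6C, TRAK1, MBNL3 and CDKL4 ends lay in the window of the gene named. The AHI1, R3HDM1, HDAC4, ETV5, SRPK1 and SRPK2 ends lay in windows of other genes, so they do not mark the starts of the genes named. Each run is 30 bases on GRCh38.p14, with 15 bases outside and 15 inside the circle end, written 5′ to 3′ on the strand that carries the signal. Capitals mark the intron's last 2 bases (AG, the acceptor) or first 2 bases (GT, the donor).
TNRC6C start, chr17:78004155-78004184, plus strand, acceptor: ctttgtatttaatAGggagaaagagcaaga
TRAK1 start, chr3:42087089-42087118, plus strand, acceptor: tcaattgtcccatAGattccctataaggag
MBNL3 end, chrX:132440300-132440329, minus strand, acceptor: atttttttcttgcAGgttctgaaaagtgcc
AHI1 end, chr6:135323310-135323339, minus strand, acceptor: ttatctctctcttAGgtagtggctctttat
CDKL4 end, chr2:39229574-39229603, minus strand, acceptor: taccttattttccAGgtgcagcattgtact
R3HDM1 end, chr2:135661379-135661408, plus strand, donor: ctgcgcagcagacagGTgagttgtgtttct
HDAC4 start, chr2:239134230-239134259, minus strand, donor: cacccctcgtcacagGTgagcacaaatggg
ETV5 start, chr3:186079802-186079831, minus strand, donor: tccatcagaacagagGTgggtgttgatctg
SRPK1 start, chr6:35857246-35857275, minus strand, donor: agcacggcatgcatgGTaatgttttttccc
SRPK2 start, chr7:105203613-105203642, minus strand, donor: cggactactgcaaagGTgatgtgccaagca

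All 10 of these ends abutted the expected dinucleotide, 5 acceptors and 5 donors, and in the 9 cases where the host's strand could be compared it was the strand of the signal. Of the 52 ends of other cytosolic circRNAs in such windows, 52 did so, and of the 131 ends over all circRNAs, 129 (98.5%). Over all positions of the 35116 promoter windows, the signals read outside a start (AG or AC) stood at 11.7% of places and those read outside an end (GT or CT) at 11.7%, which is the level that any position of these windows gives. Whether the callers required such signals to list a junction is not given here, so these rates cannot speak for the circles. The genes named here do unlike things. TNRC6C is a GW182 protein of microRNA silencing, TRAK1 an adaptor that moves mitochondria along microtubules, MBNL3 a muscleblind splicing factor and HDAC4 a histone deacetylase. SRPK1 and SRPK2 are kinases of the serine and arginine rich splicing factors. Most were thinly read: the TNRC6C circle had 4 and 4 Ciri reads, the HDAC4 circle 1 and 2 CIRC reads, and the ETV5 circle 9 and 2 reads with both callers. No member of the abundant group described next had an end in these windows.

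The leading member was an entry inside FGG, the fibrinogen gamma chain gene, on chromosome 4 from 154610158 to 154611898, a span of 1741 bases. It had 8236 and 9410 Ciri reads and no CIRC entry, or 872 and 904 RPTM (888 ± 22.1). This 1 entry held 13.7% of the circRNA reads of the first cytosolic library (exact 95% binomial interval 13.4 to 13.9%) and 15.9% of the second (15.6 to 16.2%). Such intervals cover counting error only, since reads of 1 library are not independent molecules. Among cytosolic circRNAs listed elsewhere the highest level was 45.7 RPTM, for an entry in NFATC3. No other table listed any circRNA with FGG as host. A like case outside the cytosol was ALB, the albumin gene, whose leading entry was also listed by Ciri alone, at 1043 RPTM in cells and 1258 in cytoplasm, and stood in those 2 tables only.

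All members together made up 24.5% and 27.5% of cytosolic circRNA reads (26.0 ± 2.14%), or 1564 ± 1.27 RPTM. Without the FGG entry the other 1601 held 10.8% and 11.6% (11.2 ± 0.546%), so the members' share of reads rested mainly on 1 gene. Members listed by Ciri alone carried 20.7 ± 1.95% of the reads, those listed by both callers 2.80 ± 0.0423% and those listed by CIRC alone 2.45 ± 0.150%.

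**Figure D1:**
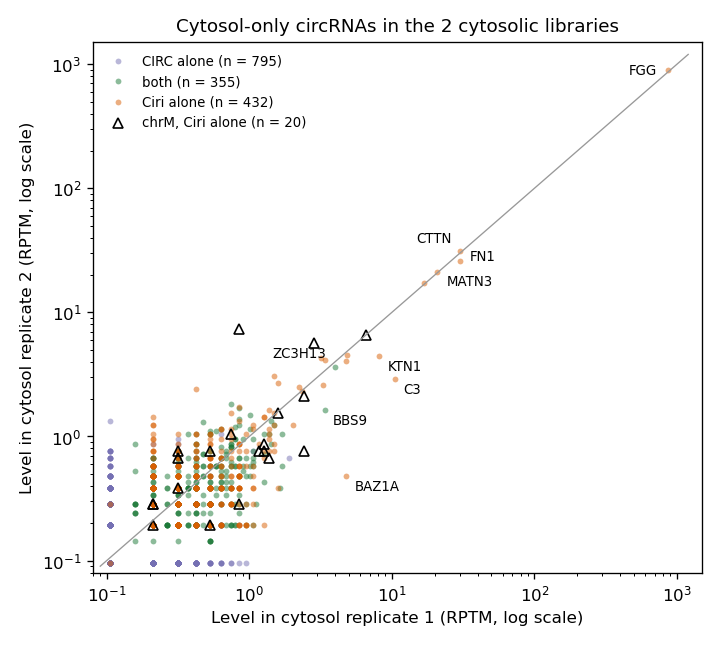
Level of each of the 1602 cytosol-only circRNAs in the first (x axis) and second (y axis) cytosolic library, in RPTM on log scales; points are circRNAs, coloured by caller, triangles are mitochondrial genome entries, and the line marks equal levels. FGG stands alone at 872 and 904 RPTM, while the median member is at 0.255 RPTM.

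Below FGG came 4 more entries of at least 10 RPTM, all listed by Ciri alone. An entry in CTTN, the gene of the actin-binding protein cortactin, covered 111 bases on chromosome 11 (70419746 to 70419856) and had 282 and 323 reads, or 29.9 and 31.0 RPTM (30.4 ± 0.810). In FN1, the fibronectin gene, an entry of 136 bases on chromosome 2 (215380811 to 215380946) had 285 and 272 reads, or 30.2 and 26.1 RPTM (28.2 ± 2.88). The CTTN and FN1 levels overlapped between libraries and have no order. MATN3, which encodes the cartilage matrix protein matrilin-3, held an entry of 126 bases on chromosome 2 (19997134 to 19997259) with 195 and 219 reads (20.8 ± 0.264 RPTM), where the lncRNA gene WDR35-DT also lies. The fourth ran from C4A to C4B, the near-identical neighbouring genes of complement component 4, from 31997144 to 32029798 on chromosome 6, with 159 and 179 reads (17.0 ± 0.245 RPTM). All 5 were close in both libraries.

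At these levels the other tables also held entries of their own. Ribosome alone had 5 entries of at least 10 RPTM, cytoplasm alone 2, exosomes alone 1, and cells or nucleus alone none, each listed by Ciri alone. Their highest levels were 133 RPTM in ribosome and 35.8 in cytoplasm, against 888 in cytosol.

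Outside the mitochondrial genome, C3, KTN1 and a second C4 entry came next among entries of a single caller. The C3 entry, in the gene of the central complement component, covered 52 bases on chromosome 19 (6719352 to 6719403) and had 99 and 30 reads, or 10.5 and 2.88 RPTM (6.68 ± 5.38). KTN1, which encodes kinectin, a membrane protein of the endoplasmic reticulum, held an entry of 3116 bases on chromosome 14 (55653017 to 55656132) with 77 and 46 reads (6.29 ± 2.64 RPTM). The second C4A to C4B entry had 46 and 47 reads (4.69 ± 0.254 RPTM). C3 differed more than 3-fold between the libraries and the second C4 entry hardly at all.

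C4A and C4B sit in a tandem repeat, and reads of 1 copy can be placed on the other, so these entries cannot be assigned to a gene or read as a long circle. Entries from C4A to C4B stood in 5 of the 6 tables: 7 in cells, 3 in nucleus, 4 in cytoplasm, 4 in ribosome and 4 in cytosol, of which the 2 above are cytosol-only. Their summed level was 25.7 RPTM in cytosol, 31.2 in cells, 20.7 in cytoplasm and 24.4 in ribosome. The gene pair was thus called in every table but the exosomal one, and only the exact coordinates were particular to cytosol.

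Of the 1582 members outside the mitochondrial genome, 38 had no host, and all 38 were listed by Ciri alone, at 45.9 RPTM in sum. In 27 the ends lay in different genes, in 4 only 1 end lay in a gene and in 7 neither did. Many pairs were named copies of each other, and counting could have split their reads: CRYBB2 and its pseudogene CRYBB2P1 (2.14 ± 0.778 RPTM), NPIPA8 and NPIPA9 (1.37 ± 0.166), MTX1 and its pseudogene MTX1LP (1.26 ± 0.159) and GOLGA8A and GOLGA8B (1.17 ± 0.295). These were chosen after their values were seen, for their names. Apart from the C4 entries, the highest of the group ran from LOC102723728 to NOMO2 (2.94 ± 0.489 RPTM) and from MAGED2 to TRO (2.36 ± 0.192).

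The median level was 0.401 RPTM for members listed by both callers, 0.399 for Ciri alone and 0.154 for CIRC alone, but no member with both callers came near the Ciri-alone leaders. The highest with both was ZC3H13, a subunit of the complex that writes N6-methyladenosine on RNA. Its member ran from 46003139 to 46045516 on chromosome 13, a span of 42378 bases, with 47 and 43 Ciri reads and 28 and 33 CIRC reads (3.97 and 3.65 RPTM, 3.81 ± 0.229). BBS9, a subunit of the BBSome that carries cargo to cilia, had a member of 39077 bases on chromosome 7 (33349068 to 33388144) with 32 and 17 reads by both callers (2.51 ± 1.24 RPTM). The ZC3H13 libraries lay close together and above both BBS9 libraries.

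The other 10 of the 12 highest both-caller members lay between 1.14 and 1.39 RPTM. RNF13, an endosomal ubiquitin ligase, led them at 1.39 ± 0.0606 RPTM, with 11 and 14 Ciri reads and 16 and 14 CIRC reads over 25755 bases of chromosome 3. CNKSR3, a scaffold protein of sodium channel regulation, had 16 and 11 reads (1.38 ± 0.452 RPTM) over 999 bases of chromosome 6. SLC35F5, a member of a nucleotide sugar transporter family, had 14 and 13 reads (1.37 ± 0.166). These 3 cannot be ordered, since their libraries overlap.

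EEA1, PLD1 and COG3 are genes of membrane traffic or lipid signalling. EEA1, the tether of early endosomes, had 7 and 19 reads over 20514 bases of chromosome 12 (1.28 ± 0.766 RPTM). PLD1, a phospholipase D, had 14 and 9 Ciri reads over 2194 bases of chromosome 3 (1.15 ± 0.400), and COG3, a subunit of the Golgi tethering complex, 13 and 11 (1.22 ± 0.227). EEA1 was higher in the second library, PLD1 and COG3 in the first.

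Also in this range were KIAA0319L, the receptor used by adeno-associated viruses, with a span of 247 bases (1.25 ± 0.341 RPTM), PTPN4, a tyrosine phosphatase, with 12 and 11 reads (1.16 ± 0.152), and TENT2, a cytoplasmic poly(A) polymerase, with 16 and 6 reads (1.14 ± 0.791). Among members listed by CIRC alone the highest, chosen after the values were seen, was DCAF6, a substrate receptor of a ubiquitin ligase, with 18 and 7 reads (1.29 ± 0.873). TLK2, a kinase of chromatin assembly, followed with 10 and 8 reads (0.914 ± 0.206), and CD46, a receptor that restrains complement, with 6 and 11 (0.846 ± 0.298). No CIRC-alone member came near the levels of the Ciri-alone leaders.

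Most members were thinly read. Their median was 2.5 reads per library, against 5.5 for cytosolic circRNAs listed elsewhere and 2 each for cytoplasm-only and ribosome-only entries. In 593 members (37.0%) neither library had more than 2 reads, compared with 11.2% of cytosolic circRNAs listed elsewhere, 47.1% of cytoplasm-only and 55.5% of ribosome-only entries. At the bottom, 244 members had 1 read in each library, the least that can be listed. Only 39 members (2.43%) had at least 10 reads in each library. Thin reading was thus shared with the entries particular to the neighbouring fractions.

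Of the 65 members with a mean of at least 10 reads, 52 had libraries within 2-fold of each other and 4 lay 3-fold or more apart, with a median of 1.33-fold. The group held 47 members listed by Ciri alone, 17 by both callers and 1 by CIRC alone.

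By caller, 355 members (22.2%) were listed by both, 452 (28.2%) by Ciri alone and 795 (49.6%) by CIRC alone. Among cytosolic circRNAs listed elsewhere these shares were 56.0, 21.2 and 22.8%. Among cytoplasm-only entries they were 20.5, 22.6 and 56.9%. Read the other way, 15.3% of the cytosolic circRNAs with both callers were cytosol-only (355 of 2318, exact 95% binomial interval 13.9 to 16.8%), 37.9% of those by Ciri alone (452 of 1193, 35.1 to 40.7%) and 49.9% of those by CIRC alone (795 of 1594, 47.4 to 52.4%). Where both callers listed a member, 208 of 355 had the same reads from each in both libraries, 118 had more from Ciri and 26 more from CIRC in sum.

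The share of cytosolic circRNAs that were cytosol-only fell with level up to the class from 1 to 3 RPTM. It was 52.6% below 0.3 RPTM (915 of 1740), 27.4% from 0.3 to 1 (622 of 2270), 6.21% from 1 to 3 (50 of 805) and 4.17% from 3 to 10 (10 of 240). The intervals of the classes from 1 to 3 and from 3 to 10 overlap (4.64 to 8.11% and 2.02 to 7.53%), so these have no order. At 10 RPTM and above it was 10% (5 of 50, exact 95% binomial interval 3.33 to 21.8%), an interval that overlaps the one below it (2.02 to 7.53%). Those 5 are FGG, CTTN, FN1, MATN3 and the C4 entry, and none was listed by both callers. The 12 members of at least 3 RPTM outside the mitochondrial genome were listed by Ciri alone in 11 cases, ZC3H13 being the exception.

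**Figure D2:**
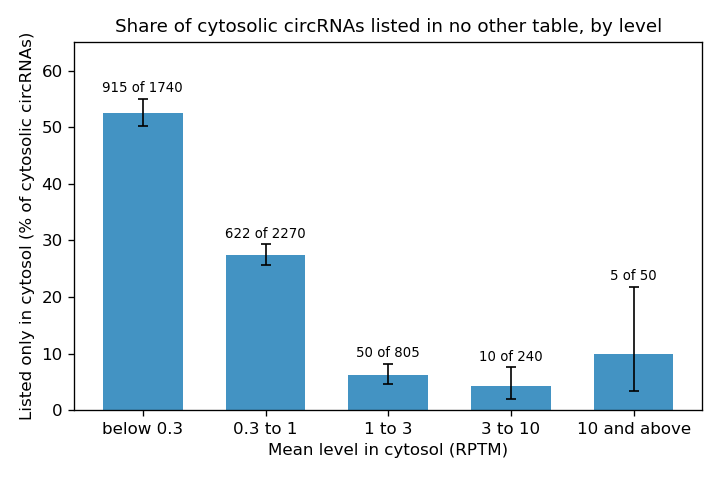
Share of cytosolic circRNAs that were cytosol-only (y axis, percent) by level in the cytosolic libraries (x axis, RPTM classes), with exact 95% binomial intervals, which take circRNAs as independent, as bars. The share goes from 52.6% below 0.3 RPTM to 4.17% at 3 to 10 RPTM, and the 5 members of the top class are all listed by Ciri alone.

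Just outside the rule lay 1032 cytosolic circRNAs that stood in exactly 1 other table: 581 in cytoplasm, 282 in cells, 140 in ribosome, 20 in nucleus and 9 in exosomes. Of them, 325 had at most 2 reads in each library of that other table and 110 had 1 read in each. Their median level was 0.301 RPTM there and 0.351 in cytosol, next to 0.255 over the members. Coordinates shifted by up to 10 bases were rare, since 1 member lay within 1 base of an entry of another table at both ends, 9 within 5 bases and 10 within 10.

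The median span of the members was 7402.5 bases (95% order-statistic interval 6681 to 8222), against 5909 (5491 to 6281) for cytosolic circRNAs listed elsewhere, 6705 (6149 to 7298) for cytoplasm-only and 8720 (7232 to 11071) for ribosome-only entries. It was 7682 for members with both callers, 7500 for Ciri alone, mitochondrial entries included, and 7359 for CIRC alone. The middle of the distribution was therefore alike for the callers, and they parted at its short end. Up to 200 bases lay 9.73% of the Ciri-alone members (44 of 452), mitochondrial entries included, and 2.16% of the Ciri-alone cytosolic circRNAs listed elsewhere. For cytoplasm-only entries of Ciri alone the share was 1.85%, and for ribosome-only ones 7.69%. Of the 44 members 29 lay outside the mitochondrial genome. Mitochondrial entries thus raise the members' share, which is not ordered here against the ribosome-only one.

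**Figure D3:**
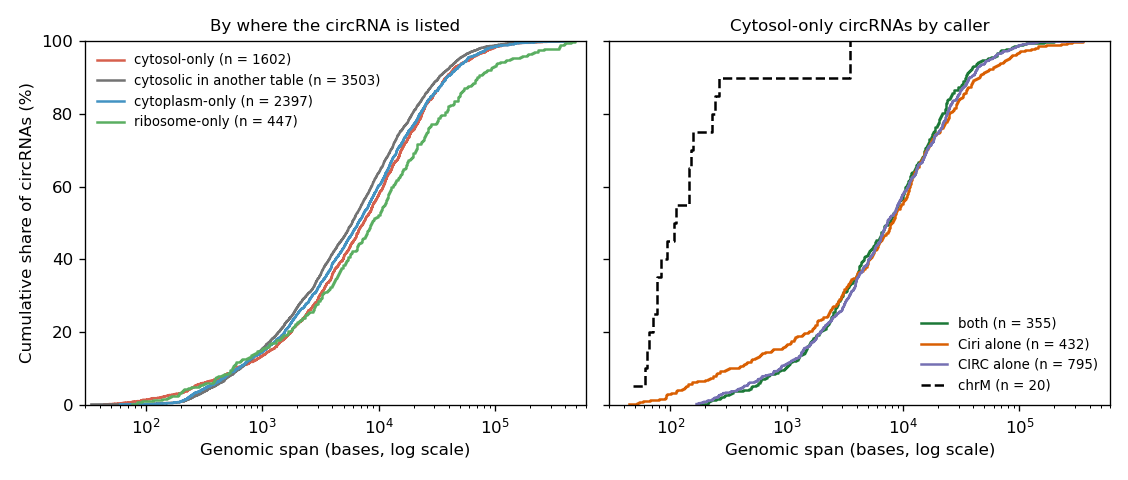
Cumulative share (y axis, percent) of circRNAs by genomic span (x axis, bases, log scale), on the left by where the circRNA is listed and on the right for cytosol-only circRNAs by caller, with the 20 mitochondrial entries drawn apart. The callers' medians lie between 7359 and 7682 bases when mitochondrial entries are counted with Ciri alone, which its curve leaves out. The Ciri-alone curve starts at shorter spans.

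Outside the mitochondrial genome 36 members spanned up to 200 bases, 29 of them listed by Ciri alone, 6 by CIRC alone and 1 by both. Together they had 107.5 RPTM, and 5 of them were among the 12 members of at least 3 RPTM: CTTN, FN1, MATN3 and C3, given above, and NOP58. NOP58, a core protein of box C/D small nucleolar RNPs, had an entry on chromosome 2 from 202302932 to 202303057 with 30 and 45 reads (3.75 ± 0.809 RPTM). A second NOP58 member enclosed it by a few bases on each side, from 202302927 to 202303061, with 19 and 13 reads (1.63 ± 0.540). BAZ1A, a subunit of the ACF chromatin remodeller, had an entry of 102 bases whose libraries stood far apart, at 45 and 5 reads (4.77 and 0.480 RPTM, 2.62 ± 3.03). A short span is shorter than many single exons, and whether these entries are exonic was not analysed here.

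The shortest member outside the mitochondrial genome was an entry of 44 bases in RGPD2, of a family of near-identical RANBP2 copies, with 3 and 3 reads (0.303 RPTM). SSR1, a subunit of the translocon-associated complex, held the third shortest, after C3, at 54 bases with 2 and 13 reads (0.730). At the other end stood LPP, a focal adhesion protein gene, whose member spanned 354171 bases of chromosome 3 with 1 and 1 CIRC reads (0.101 RPTM). A pair of junctions between related genes followed, POM121 to POM121B over 353588 bases and ZNF83 to ZNF888 over 280257. Spans above 50000 bases made up 6.55% of the members, 4.65% of cytosolic circRNAs listed elsewhere, 6.68% of cytoplasm-only and 14.8% of ribosome-only entries.

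Protein-coding genes hosted 94.6% of the members and lncRNA genes 1.37%. The 1582 members outside the mitochondrial genome came from 1116 hosts, of which 830 had 1 member and 286 had at least 2, for 714 members. For 76.8% of all members the host also gave a circRNA to another table, next to 74.4% of cytoplasm-only and 69.6% of ribosome-only entries. A host was found for 97.2, 98.6 and 90.6% of these groups, and counted per host the shares with a circRNA in another table were 74.1, 69.7 and 74.7%, in another order. Most cytosol-only circRNAs were thus further junctions of genes that gave circRNAs in other fractions.

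USP34, a deubiquitinase gene, had the most members, 7, beside 18 circRNAs in other tables, of which 8 were also cytosolic. The sum of the 7 members was 3.05 ± 0.0381 RPTM. EHBP1, a linker of endocytic vesicles to actin, had 6 (1.81 ± 0.160), as did EIF4G3, a scaffold of translation initiation (2.23 ± 0.237), ITPR2, a calcium release channel (0.861 ± 0.131), UTRN, the dystrophin relative utrophin (2.54 ± 0.746), and ZMYND8, a chromatin reader (1.45 ± 0.398). All 6 genes are long, from 147486 bases for ZMYND8 to 567700 for UTRN. Members of 1 host often met at the same start or end: 3 EHBP1 members ended at 62874532, and 2 ITPR2 members began at 26578713. In all, 73 starts and 91 ends were used by at least 2 members, so members of 1 host are not independent.

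In 285 hosts, with 315 members, no circRNA stood in any other table. FGG and MATN3 led them, followed by GKAP1, a protein that anchors a cGMP-dependent kinase, with 14 and 9 reads (1.17 ± 0.438 RPTM), the pseudogene RABGEF1P2 (1.13) and AGK, a mitochondrial acylglycerol kinase, with 9 and 11 reads (0.953 and 1.06 RPTM). SH3D19, an adaptor protein gene chosen after its values were seen, was the host with the most members among them. It had 5 and no other cytosolic circRNA, at 1.69 ± 0.0816 RPTM in sum, and 3 of them began at 151147922 on chromosome 4 and ended at 151148186, 151149561 and 151159352. Those 3 had levels of 0.404 ± 0.0280, 0.351 ± 0.0469 and 0.377 ± 0.00945 RPTM, which overlap. A single start of SH3D19 was thus joined to 3 ends. Each of these entries rested on 3 to 5 reads per library and caller, and the 1 of 1640 bases was listed by Ciri alone.

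Of the members' ends, many were known from other tables. In 775 members (48.4%, exact 95% binomial interval 45.9 to 50.9%) at least 1 end was also an end of the same kind in another table, and in 116 (7.24%) both were, joined in another combination. The start alone was used elsewhere in 297, the end alone in 362, and neither in 827 (51.6%). At least 1 end was used elsewhere for 46.6% of cytoplasm-only and 45.6% of ribosome-only entries. By caller the share was 56.6% for members with both callers, 48.3% for CIRC alone and 42.0% for Ciri alone.

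**Figure D4:**
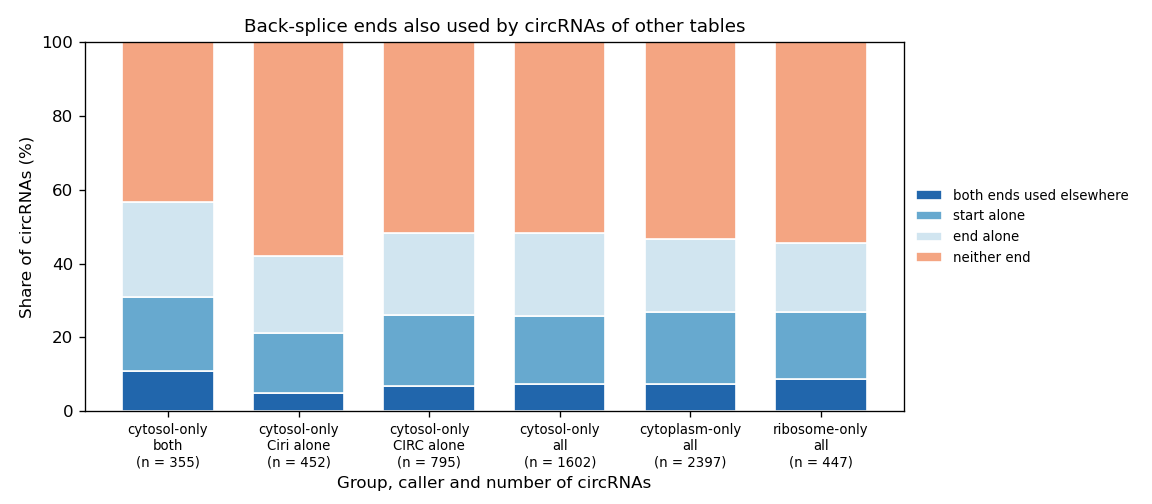
Share of circRNAs (y axis, percent) whose start, end, both or neither was also used by a circRNA of another table, for cytosol-only circRNAs by caller and for all entries particular to cytosol, cytoplasm and ribosome (x axis). Neither end was used elsewhere in 51.6% of cytosol-only circRNAs.

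For the 659 members that shared exactly 1 end, the most abundant circRNA of another table with that end served as partner. The member was longer than its partner in 349 cases and shorter in 310. In 403 cases the partner was itself listed in cytosol, and there the member was the lower one in 340, with a median ratio of 31.6%. Partners were chosen as the most abundant, so their higher level is no finding.

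Pairs chosen after their values were seen show the range. In NFATC3, a transcription factor of calcium signalling, the member from 68121987 to 68138582 on chromosome 16 had 10 and 12 reads (1.11 ± 0.0658 RPTM), and the circRNA from 68121987 to 68126610 was at 45.7 RPTM. KPNA5, an importin alpha of nuclear import, had a member with 1 and 5 CIRC reads (0.293 RPTM) beside a partner at 19.5. The RNF13 member at 1.39 RPTM shared its end with a circRNA at 8.25. By mean level ZC3H13 and BBS9 went the other way, at 3.81 and 2.51 RPTM against partners at 1.09 and 1.64. NFATC3, KPNA5 and RNF13 thus gave the lower circRNA of the pair, and ZC3H13 the higher one. The BBS9 member stood at 3.39 and 1.63 RPTM in the libraries, the second not above its partner's mean, so that pair has no order.

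By gene list, genes of proteins secreted by the liver hosted 18 members, 1.12% of all, against 0.428% of cytosolic circRNAs listed elsewhere and 0.552% of all circRNAs. Their median level was 0.471 RPTM (0.452 without FGG) beside 0.255 over all members, 11 were listed by Ciri alone and 8 spanned up to 200 bases. Beside FGG, FN1 and C3 they included A2M, alpha-2-macroglobulin, with 14 and 32 reads over 111 bases (2.28 ± 1.12 RPTM), where KLRG1 also lies. FGA, the fibrinogen alpha chain gene, had a pair of abutting entries on chromosome 4, from 154586261 to 154586352 (0.452 ± 0.0399) and from 154586353 to 154586446 (0.490 ± 0.393). IGFBP1, a binding protein of insulin-like growth factors, had an entry of 67 bases (0.596 ± 0.244), AGT, angiotensinogen, 1 of 90 bases (0.563 ± 0.253), and C5 the only entry of the list with both callers (0.356 ± 0.0959).

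Genes of hepatocyte metabolism hosted 6 members (0.375%, against 0.457% of cytosolic circRNAs listed elsewhere and 0.650% of all circRNAs), the highest in ACSL4, a ligase of long-chain fatty acids, at 0.722 RPTM, and CPT1A, the carnitine palmitoyltransferase of mitochondrial fat import, at 0.260. Hosts already known for abundant circRNAs gave 66 members (4.12%), against 7.54% of cytosolic circRNAs listed elsewhere, 2.88% of cytoplasm-only entries and 4.68% of all circRNAs. NFATC3 at 1.11 and PCMTD1 at 1.07 RPTM led them. The PCMTD1 member, from 51860861 to 51861246, shared its end with a circRNA from 51860845. That circRNA was listed in every other table and stood at 16.0 RPTM in cytosol.

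RNA-binding proteins hosted 53 members (3.31%, against 2.68% of cytosolic circRNAs listed elsewhere), with 4 each in ZC3H13 and RBM39, a splicing coactivator whose highest stood at 1.12 ± 0.385 RPTM. Chromatin genes hosted 83 (5.18 against 5.02%), led by BAZ1A and by SMARCC1, a subunit of the SWI/SNF remodeller (1.14 ± 0.562). PDS5A, a cohesin regulator, had 5 of them. Ubiquitin genes hosted 78 (4.87 against 5.14%), with RNF13 and DCAF6 highest, and kinases 54 (3.37 against 3.63%), with TLK2 and the polarity kinase MARK3 (0.894 ± 0.365) highest. Over all circRNAs the shares of these lists were 2.47, 4.28, 4.33 and 3.29%, in the order given.

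Trafficking genes hosted 49 members (3.06 against 4.03%), led by COG3 and by SEC63 of the endoplasmic reticulum translocon (0.793 RPTM). Cytoskeletal genes hosted 36 (2.25 against 2.06%), with the endosomal kinesin KIF16B (0.730 ± 0.733) after CTTN. Translation genes hosted 30 (1.87 against 1.48%), with the initiation factor genes EIF3J (0.856 ± 0.0119) and EIF4G3 (0.803) highest. Nuclear transport genes hosted 13 (0.811 against 1.51%), all listed by CIRC alone, with the nucleoporin NUP43 (0.308) and KPNA5 highest. Over all circRNAs the shares of these lists were 3.43, 1.98, 1.49 and 1.52%, in the order given. The shares of the gene lists were not tested, since the members were chosen by their listing and share hosts.

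On the mitochondrial genome lay 20 members, of only 23 mitochondrial circRNAs in all 6 tables. Mitochondrial transcripts have no spliceosomal introns, so these entries are junctions without a known splice donor or acceptor. All 20 were listed by Ciri alone. They summed to 26.1 and 32.0 RPTM (29.0 ± 4.19), with 246 and 333 reads, or 0.408% and 0.563% of cytosolic circRNA reads. Their median span was 109 bases, and 18 spanned between 48 and 263 bases. The other pair ran from COX1 to ND4L over 3512 and 3492 bases, with 5 and 2 and with 5 and 8 reads.

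The highest was an entry of 94 bases in ND2, a subunit gene of respiratory complex I, with 62 and 69 reads (6.60 ± 0.0413 RPTM). ATP6, the gene of a membrane subunit of ATP synthase, held 5 entries that summed to 8.31 RPTM. Of these, an entry of 77 bases from 8927 to 9003 had 27 and 59 reads (4.26 ± 1.98), and 1 of 263 bases from the same start to 9189 had 23 and 22 (2.27 ± 0.229). An entry of 61 bases in ND4, another complex I subunit gene, had 8 and 76 reads (0.847 and 7.30 RPTM, 4.07 ± 4.56). An entry of 227 bases across ATP8 and ATP6 ended at 8624, and an ATP6 entry began at 8625. From 333 to 403, in the noncoding control region, lay an entry of 71 bases with 15 and 16 reads (1.56 ± 0.0371). ND2 and the control region were close in both libraries, while the ND4 level rested on the second library, and 10 of the 20 were higher in each library.

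**Figure D5:**
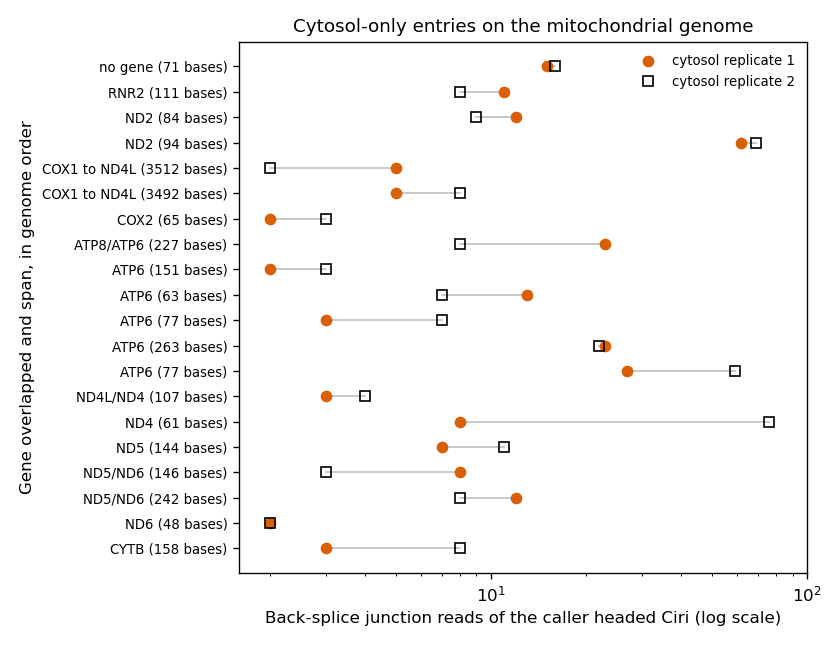
Ciri reads (x axis, log scale) of the 20 cytosol-only entries on the mitochondrial genome, in genome order (y axis, gene overlapped and span), with filled circles for the first and open squares for the second cytosolic library and lines joining the libraries. ND2 has 62 and 69 reads, and ND4 8 and 76.

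Outside cytosol the cell, nucleus and cytoplasm tables listed no mitochondrial circRNA. The ribosome table had 1, in COX3 with 2 and 2 reads, while exosomes had 2. Of these, the ND5 entry had 3 and 10 reads, and the ND4 entry, from 10783 to 10923, had 11 and 22 reads and stood in the cytosol table too, with 6 and 6. The mitochondrial samples of the study were not analysed here.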

How the data were processed

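Counts of back-splice junction reads stand in the deposited tables for each circRNA, library and caller, per the file headers, with RPTM values computed by the authors. Versions of aligner and callers are not given in the sources used here. The RPTM of a caller followed exactly from its 2 counts and 1 total per library, so these totals could be solved for, and the level in a library is the mean over callers with an entry of the count divided by that total. What the totals count is not stated. Starts and ends were treated as 1-based and inside the circle, which the splice signals bear out.

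The build is hg38, per the submitters' processing notes. Hosts came from the RefSeq table, protein-coding genes before lncRNA and others, ties to the shortest gene, without strand, so a gene on the opposite strand can be named. The members and gene lists were chosen with earlier results of these data known, so only description is given: mean ± SD, exact binomial and order-statistic intervals at 95%, and no test. The intervals over circRNAs leave out that circRNAs of 1 host are not independent. Named members were the 12 highest listed by both callers and the 8 highest by 1 caller (1 per host, outside the mitochondrial genome), the 5 hosts with most members with ties, the 3 longest and 3 shortest, all on the mitochondrial genome, the top 2 of each gene list and the 5 highest whose host is in no other table. One of the 12 is not reported here. Others named were chosen after their values were seen. The calculations were tested on simulated tables with known answers. Tools were Python 3.11.15, pandas 2.3.3, numpy 2.4.6, scipy 1.17.1 and matplotlib 3.10.9.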

Additional observations from a re-analysis of the deposited data

How the results depend on the processing

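The number of cytosol-only circRNAs depended most on the reads asked for: it was 927 of the 1602 with at least 2 reads in each library, 177 with at least 5 and 39 with at least 10. Joining only circRNAs listed by both callers gave 687, and asking for absence from the ribosome table alone gave 3322. The share of cytosolic circRNA reads was 13.2% with the FGG entry left out of both members and total, and 24.5 to 27.5% without either replicate. The median reads were 2 to 2 without either replicate, against 2.5 over both. With at least 5 reads, 67.8% of the members had a host in another table and 45.8% had an end used elsewhere. The summed mitochondrial level was 26.1 to 32.0 RPTM without either replicate. The other alternatives, including 1 and 5 bases of tolerance and each caller by itself, kept counts within 1.5 times and other values within their spread. No paired analysis was possible because no result comes from a test. Depth limits the listing: 244 members rest on 1 read in each library, and an unlisted circRNA can have had reads in 1 library of a fraction.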

Other observations

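The members lay on all chromosomes, in shares close to those of all circRNAs for most. Chromosome 2 held 174 members (10.9%, against 11.7% of all circRNAs) and chromosome 1 held 143 (8.93% against 8.71%). Chromosome 19 held 24 (1.50% against 2.56%) and the mitochondrial genome 20 (1.25% against 0.205%). No test was made of these shares.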
